A study of Mus musculus with 12 samples.

Results

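Solute carriers are membrane proteins that move nutrients, ions, vitamins and metabolites across the plasma membrane and the membranes of mitochondria, lysosomes and the Golgi apparatus. They are named by family number and member, so Slc20a1 is the first member of the phosphate transporter family. In neural cells they bring in glucose and amino acids, export lactate, set the chloride and pH balance and recapture neurotransmitters. N6-methyladenosine (m6A) is a base modification of mRNA that is written at DRACH sites (D = A/G/T; R = A/G; H = A/C/T) and is read by proteins that bear on mRNA decay, splicing and translation.

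The genes described here were those whose symbol in the mRNA peak lists began with Slc and a number. There were 169 of them among the 10030 genes with an mRNA peak, with 949 peaks of 83673 in all. The cells were wild-type C17.2, a mouse neural stem cell (NSC) line that has been immortalised. The controls were untreated cultures, and the hypoxia/reoxygenation (H/R) cultures spent 12 h under 5% oxygen before 48 h of recovery under standard conditions. The method was MeRIP-seq, which sequences the RNA fragments that an m6A antibody pulls down and, separately, the input RNA. The 12 labelled samples (3 input and 3 immunoprecipitate samples in each condition) gave 6 peak lists (control lists A, B, C and H/R lists A, B, C), each an immunoprecipitate set against its input. No label said whether the replicates came from separate cultures, so the p-values of tests between lists cover only the spread of these samples, and that spread may be technical. Because a peak list holds no input level, more of an mRNA and more methylation of it cannot be told apart here.

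The rule took genes by symbol, and 4 of the 169 are not carriers. Slc9a3r1 and Slc9a3r2 encode PDZ scaffold proteins that bind a sodium/proton exchanger, Slc4a1ap encodes an adaptor of an anion exchanger, and Slc7a6os is a separate gene on the strand opposite Slc7a6. They were kept, each in the class of its family number. The annotation held 371 protein-coding genes with such symbols, and 45.6% of them had a peak in at least 1 list, against 42.8% of all protein-coding genes. The 202 members of the annotation without a peak were left with no value, since a gene without a peak may be weakly expressed, unmethylated or both.

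The lists differed in length, from 7863 peaks in control C to 22038 in H/R C, and even the shortest H/R list held more peaks than the longest control list. The median false discovery rate of the caller was 100% in each control list and between 68.9% and 85.9% in the H/R lists. No solute carrier peak had a rate of 5% or less, and the lowest was 25.0%, in H/R A. Of 8 neural stem cell markers, Nes and Sox2 had a peak in every list and Msi1 in H/R A and C, whereas Sox1, Pax6, Vim, Fabp7 and Prom1 had none. Of the other markers, 1 of 5 neuron, 1 of 4 astrocyte and 2 of 5 oligodendrocyte lineage genes had a peak. A list of peaks does not show whether a marker was expressed.

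Every H/R list held more solute carrier genes with a peak than any control list. They numbered 98, 72 and 68 in the controls and 135, 103 and 148 after H/R (always in the order of lists A, B and C), so the groups did not overlap. The means were 79.3 ± 16.3 and 129 ± 23.2 (SD, n = 3 each; two-sided exact permutation test, p = 0.1, the smallest p that 3 against 3 allows). Their peaks numbered 143, 96 and 87 in the controls and 213, 149 and 261 after H/R, again without overlap (109 ± 30.1 against 208 ± 56.2, SD, n = 3 each; exact permutation p = 0.1).

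The solute carrier share of all mRNA peaks overlapped between the groups. Solute carrier genes held 1.17%, 1.07% and 1.11% of the mRNA peaks in the controls and 1.14%, 1.07% and 1.18% after H/R (exact permutation test, p = 0.8, n = 3 each). Among called genes their share was 1.51%, 1.38% and 1.44% in the controls and 1.66%, 1.55% and 1.66% after H/R, which did not overlap (exact permutation test, p = 0.1, n = 3 each). When every list was cut to its 7863 peaks of the highest p score, the mean number of solute carrier genes called differed by -0.67 between H/R and control (exact permutation p = 0.9, n = 3 each). With only peaks of a fold enrichment of at least 10, the differences were 4.0 genes and 4.67 peaks (exact permutation p = 0.9 for each, n = 3 each), against 49.3 and 99.0 in the full lists. The p score is 10 times the -log10 of the caller's p. The longer H/R lists and the larger number of genes could not be told apart.

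**Figure D1:**
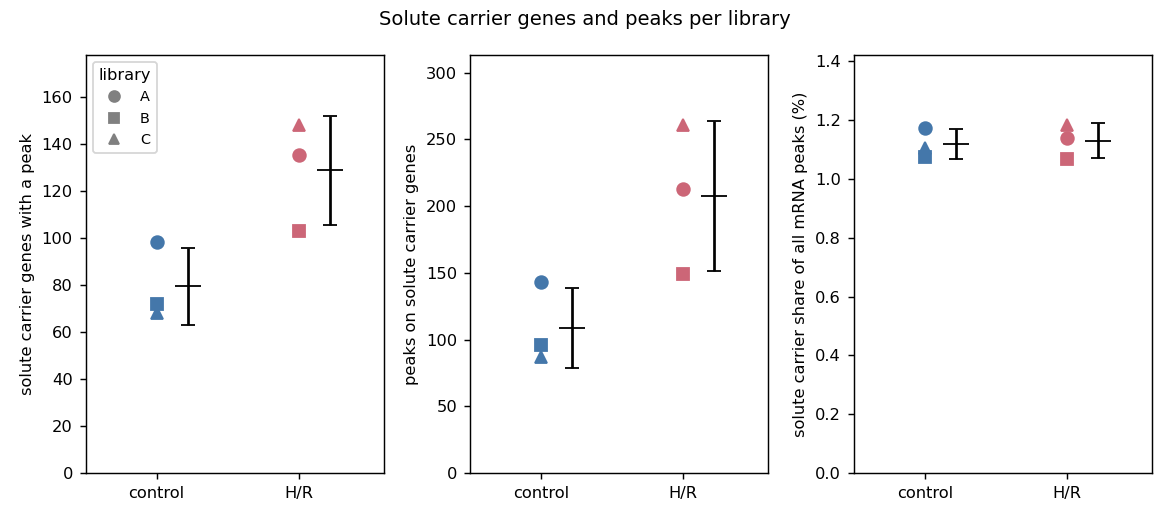
Number of solute carrier genes with a peak, number of their peaks and their share of all mRNA peaks (%) in each of the 3 control and 3 H/R lists, with the group mean and SD beside the points. The counts did not overlap between control (68 to 98 genes) and H/R (103 to 148 genes), whereas the shares of peaks lay between 1.07% and 1.18% in both groups.

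Most members were not called in every list. Of the 169 genes, 51 (30.2%) had a peak in all 6 lists, against 39.5% of all genes with a peak, and 41 (24.3%) had one in a single list, against 19.8% of all genes. The 51 genes held 1.48 ± 0.17 peaks per gene in the control lists and 1.97 ± 0.32 in the H/R lists (SD, n = 3 each; exact permutation p = 0.2). Over all 3966 genes called in every list the values were 2.0 ± 0.27 and 3.04 ± 0.41 (SD, n = 3 each; exact permutation p = 0.1). Solute carrier genes with at least 2 peaks numbered 33, 16 and 16 in the controls and 52, 35 and 73 after H/R. The same count over all genes was not made. The lists as a whole were also longer after H/R, with 13954 to 22038 mRNA peaks against 7863 to 12180 in the controls.

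The pattern of H/R-only genes was led by Slc20a1. A gene was counted as H/R-only when each of the 3 H/R lists held a peak of it and the 3 control lists held none. Of all genes, 497 (4.96%) met this rule, and of the solute carrier genes 12 of 169 (7.1%) did, with Slc20a1, Slc16a6, Slc15a1, Slc7a6os, Slc29a2, Slc19a1, Slc12a5, Slc38a9, Slc16a5, Slc16a9, Slc25a45 and Slc25a13 in the order of their lowest p score. The opposite pattern was met by 7 of all genes (0.0698%) and by 0 solute carrier genes. The count rose to 24 without control A and to 25 without H/R B, beside 10.8% and 11.7% of all genes, and these are the longest control list and the shortest H/R list.

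Slc20a1 encodes a sodium-dependent phosphate transporter of the plasma membrane that supplies the cell with inorganic phosphate. It had 0 peaks in every control list and 2 in every H/R list. The peak in its coding sequence lay at chr2:129207981-129208539 (mm10, plus strand) with the same boundaries after H/R. Its fold enrichment, the ratio of the immunoprecipitate to the local background, was 16.2, 24.6 and 23.8, and its p score was 2455, 2361 and 3093. No other H/R-only solute carrier gene reached such a score in all 3 lists.

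The second Slc20a1 region spanned the start codon, at chr2:129199310-129200774. Its fold enrichment was 40.4, 19.5 and 20.9 and its p score 3100, 289.9 and 2271 after H/R. In H/R B the peak was longer and was listed on a transcript without a coding model in the annotation used. The paralogue Slc20a2, a phosphate transporter of the same family, had 2 peaks in all 6 lists, also at its start codon and in its coding sequence. The fold enrichment of its start codon peak was 30.2, 35.0 and 17.0 in the controls and 17.2, 30.3 and 18.6 after H/R, and these ranges overlapped. The family thus had 1 gene listed in H/R alone and 1 listed in every library.

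The 21 bases around the most central DRACH site of the stretch shared by the lists are shown for the H/R-only genes whose 3 lists shared a stretch with such a site, since these sequences place the result on the transcript. Capitals mark the DRACH site. The bases are mm10, 5′ to 3′ on the transcript strand.
Slc20a1, coding sequence, chr2:129208239-129208259, plus strand: aagaaggtGAACAaaagggag
Slc20a1, start codon peak, chr2:129199693-129199713, plus strand: tatttaaaGAACCactacact
Slc16a6, coding sequence, chr11:109455320-109455340, minus strand: ccgctgttGGACTtctccgtc
Slc19a1, coding sequence, chr10:77042150-77042170, plus strand: tcaccgtaGGACAtataagca
Slc16a9, coding sequence, chr10:70282584-70282604, plus strand: gggacgggAGACTtcccttcc
Slc29a2, 3'UTR peak, chr19:5031484-5031504, plus strand: tcagagtgGGACCtgggacca
Slc25a45, 3'UTR peak, chr19:5885723-5885743, plus strand: tgtcccttGAACAgatacatg

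The shared stretches were much longer than these windows, so these are candidate positions only and no site within a peak was resolved. The Slc20a1 coding peak held 11 DRACH sites on the transcript strand and the Slc16a6 coding peak 17. A DRACH site is common, being present in 30.6% of the 21-base stretches of all mRNA peak regions. The stretch shared in Slc25a45 held 1 site, near its end, and the shared 89 bases of the Slc15a1 peak held 0. Slc16a5, whose region H/R A listed as separate peaks, is not shown.

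Slc16a6 belongs to the monocarboxylate transporter family, which carries lactate, pyruvate, ketone bodies and related acids. It had 0 peaks in the control lists and 3, 2 and 3 after H/R. Its coding sequence peak at chr11:109454863-109455678 (minus strand) had the same boundaries in the 3 H/R lists, with fold enrichments of 14.5, 15.9 and 19.1 and p scores of 1424, 337.7 and 1087. Its 3'UTR peak had fold enrichments of 7.24, 9.62 and 6.89 and lay over an exon of Amz2 on the other strand. Whether the libraries kept strand is not given in the sources used here, so the reads of that second peak cannot be assigned to either gene with certainty.

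Other H/R-only genes had 1 place in common at lower scores. Slc19a1, the reduced folate carrier, had a coding sequence peak at chr10:77041816-77042569 with fold enrichments of 9.43, 10.4 and 9.89 and p scores of 563.2, 81.6 and 285.1 after H/R. Slc15a1, a proton-coupled carrier of di- and tripeptides, had a coding peak at chr14:121478059-121478147 with fold enrichments of 6.59, 14.4 and 10.2. Slc29a2, an equilibrative nucleoside transporter, had a 3'UTR peak with fold enrichments of 10.7, 9.67 and 8.49. In each H/R list all 3 genes had a lower fold enrichment than Slc20a1.

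The monocarboxylate family (Slc16) gave 3 of the 12 genes, from 8 members with a peak, beside 4.96% of all genes. Of these 3, only Slc16a6 stayed H/R-only with lists of equal length or a fold enrichment of at least 10. Slc16a9 had a coding sequence peak with fold enrichments of 7.07, 16.6 and 8.55 after H/R, and its p score in H/R A was 55.7. Slc16a5 had 3, 1 and 2 peaks, and the region common to the 3 lists (chr11:115472671-115474187) was cut differently in each, with its centre in the coding sequence in H/R A and C and in the 3'UTR in H/R B. Slc25a45, of the mitochondrial carrier family, had a region at its stop codon and 3'UTR with fold enrichments of 5.78, 8.64 and 7.33.

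For the remaining 4 genes the H/R lists did not call 1 common place. Slc12a5, the potassium-chloride cotransporter KCC2 that lowers chloride in mature neurons, had a coding peak at chr2:164993640-164993809 in H/R A and B and another at chr2:164987534-164987632 in H/R C. Slc38a9, a lysosomal amino acid transporter that signals arginine to mTORC1, had a start codon peak in H/R B and C and a peak elsewhere in H/R A. Slc25a13, the mitochondrial aspartate-glutamate carrier citrin, had fold enrichments of 4.64, 7.16 and 4.12, the lowest of the 12 genes, and H/R C listed a different exon from H/R A and B. Slc7a6os, which is not a carrier, had peaks at its 3'UTR in H/R B and C and in its coding sequence in H/R A.

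**Figure D2:**
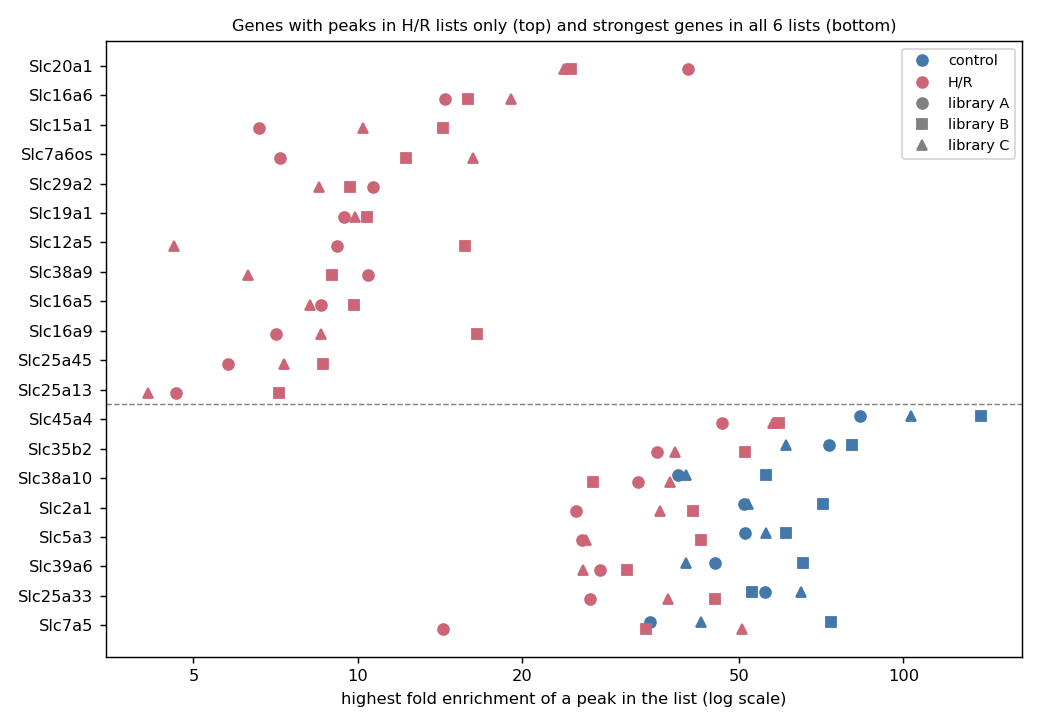
Highest fold enrichment of a peak (log axis) in each list for the 12 H/R-only genes above the dashed line and for the 8 genes with the highest lowest p score among those called in all 6 lists below it. Slc20a1 lies at 23.8 to 40.4 in the H/R lists and the other H/R-only genes between 4.12 and 19.1. In 7 of the 8 genes below the line every control value is above every H/R value, Slc7a5 being the exception.

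With lists of equal length, genes of both kinds were about equally frequent. Over all genes, 73 of 6444 (1.13%) were H/R-only and 85 (1.32%) control-only. Of the 96 solute carrier genes left, 3 were H/R-only (Slc20a1, Slc16a6 and Slc10a3) and 3 control-only (Slc35b3, Slc12a4 and Slc35a5). With only peaks of a fold enrichment of at least 10, 127 of 8015 genes (1.58%) had the H/R-only pattern and 38 (0.474%) the opposite one. Of 125 solute carrier genes then left, Slc20a1 and Slc16a6 were on the one side and Slc26a11 and Slc17a5 on the other. Slc20a1 and Slc16a6 were the members that were H/R-only under both rules.

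Each of the 5 genes that were control-only under these rules had a peak in at least 1 full H/R list. Slc12a4, a potassium-chloride cotransporter, had fold enrichments of 38.1, 18.1 and 34.0 in the controls and 7.34, 18.4 and 12.9 after H/R. Slc35a5, of the nucleotide sugar transporter family, had 23.1, 27.1 and 22.2 and then 7.72, 12.3 and 9.42. Fold enrichments were lower after H/R for peaks in general. The median over solute carrier peaks was 20.4, 31.9 and 26.8 in the controls and 8.75, 15.7 and 9.88 after H/R, beside 21.8, 33.9 and 28.0 and 9.34, 15.5 and 10.05 over all mRNA peaks (exact permutation p = 0.1 in each case, n = 3 each).

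By region, 16 of 324 merged solute carrier regions (4.94%) were H/R-only, against 6.21% of all 27079 regions, and 0 were control-only, against 0.0628%. Regions were merged wherever peaks of any list overlapped by at least 1 bp. Each region took the class of the centre of its highest-scoring peak. By this rule 10 of the 16 lay in the coding sequence, 2 in the 3'UTR, 2 at the start codon, 1 at the stop codon and 1 in the 5'UTR. They belonged to 14 genes, and 2 of those genes were called elsewhere in all 3 control lists. In Slc35c1, the Golgi transporter of GDP-fucose, a 3'UTR peak was listed in all 6 libraries with fold enrichments of 22.5, 32.8 and 53.3 in the controls and 17.0, 25.8 and 18.6 after H/R. A further peak at its start codon was listed in H/R alone, with fold enrichments of 13.3, 9.83 and 16.7. In Slc41a1, a magnesium transporter, a coding peak of 108 bases was likewise listed in H/R alone at 10.5, 9.65 and 9.03, while a 5'UTR peak was listed in every library.

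Genes with more peaks in every H/R list than in any control list numbered 1488 of 10030 (14.8%) over all genes and 20 of 169 (11.8%) among solute carriers, and the reverse was met by 12 genes (0.12%) and by 0 solute carriers. The largest differences in mean peaks were 2.67 for Slc16a6 and for Slc39a10, a zinc importer with 2, 1 and 2 peaks in the controls and 5, 3 and 5 after H/R. The Slc39a10 peak at chr1:46835127-46836151 was in every list, at fold enrichments of 33.6, 22.3 and 15.8 and then 14.1, 18.2 and 11.3. Its other 5 regions were each in 1 to 4 lists. Slc9a3r1 had 1, 1 and 0 peaks and then 3, 2 and 4, and Slc41a1 had 2, 1 and 1 and then 3, 3 and 4.

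Slc30a1, which exports zinc at the plasma membrane, showed the same direction. It had 1 peak in control A, 0 in control B and C and 2 in each H/R list, with fold enrichments up to 29.9 in control A and 12.0, 21.1 and 15.5 after H/R, and in 3 lists a peak lay over an exon of 1700034H15Rik on the other strand. Slc10a3 and Slc10a7 likewise had 1, 0 and 0 peaks and then 2, 2 and 2. In Slc10a3 the 5'UTR peak was listed in H/R alone, at 6.53, 19.2 and 16.0, and a peak of the same gene lay over an exon of Ubl4a on the same strand.

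The strongest genes called in all 6 lists included carriers of glucose, myo-inositol, amino acids and zinc. By their lowest p score they were Slc45a4, Slc35b2, Slc38a10, Slc2a1, Slc5a3, Slc39a6, Slc25a33 and Slc7a5. Slc2a1, the glucose transporter GLUT1, had a single peak in its 3'UTR in each list, at chr4:119136246-119137330, with fold enrichments of 51.0, 71.2 and 52.0 in the controls and 25.2, 41.2 and 35.8 after H/R. Slc35b2, the Golgi transporter of the sulphate donor PAPS, had a single peak in every list at fold enrichments of 73.0, 80.4 and 61.0 and then 35.4, 51.3 and 38.2. In both genes the control folds lay above all H/R folds, in the direction of the medians of all peaks given above.

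Slc45a4 had the highest fold enrichment of any of these 8 genes, in a peak at its start codon. The values of that peak were 83.4, 138.6 and 103.4 in the controls and 46.6, 59.1 and 54.4 after H/R. Slc5a3, the sodium/myo-inositol cotransporter, had 1 coding peak per list at 51.2, 61.0 and 55.9 and then 25.8, 42.6 and 26.2. Slc38a10, of a family of amino acid transporters, had 2 peaks in every list, at its stop codon and in the coding sequence, and its coding peak had folds of 38.6, 56.0 and 40.0 and then 32.6, 27.0 and 37.3.

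Slc7a5, the LAT1 carrier of large neutral amino acids, had a 3'UTR peak in every list and a coding peak in every list but H/R A. The folds of the 3'UTR peak were 34.4, 57.6 and 33.1 in the controls and 14.4, 19.6 and 19.7 after H/R. Slc25a33, a mitochondrial carrier of pyrimidine nucleotides, had its 3'UTR peak at 55.8, 52.7 and 64.8 and then 26.7, 45.2 and 37.0, and a second peak at the start codon in H/R A and C. Slc39a6, a zinc importer, had 3, 2 and 1 peaks and then 5, 3 and 3. The p scores of these genes often stood at 3100, a value that 35 solute carrier genes reached in some list and at which scores bunch, so their order there carries no information.

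Sequences of the same kind are given for 5 of these genes, whose peaks lie in different parts of the transcript.
Slc45a4, start codon peak, chr15:73605869-73605889, minus strand: tcaaccaaAAACCcttcgtgt
Slc35b2, coding sequence, chr17:45567018-45567038, plus strand: acaccattGGACAatttggag
Slc38a10, coding sequence, chr11:120110303-120110323, minus strand: aaggaaagAGACCcgggcaag
Slc2a1, 3'UTR peak, chr4:119136772-119136792, plus strand: gagggtggGGACCacgccctg
Slc7a5, 3'UTR peak, chr8:121882092-121882112, minus strand: tgttcttgAGACTgctagtag

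Solute carrier peaks lay more often in the 3'UTR and less often in the coding sequence than peaks of other genes of the same list. Each peak was placed by its centre as 5'UTR, start codon window (100 bases on either side), coding sequence (CDS), stop codon window or 3'UTR, which was possible for 924 of the 949 peaks. The 3'UTR held 42.1%, 39.8% and 36.5% of solute carrier centres in the controls and 31.1%, 34.9% and 29.1% after H/R. Among other genes it held 23.2%, 21.4% and 20.1% and then 17.4%, 18.4% and 15.8%. The solute carrier share was higher in 6 of 6 lists, by 16.2 ± 2.32 percentage points (mean and SD of the within-list difference, n = 6; two-sided exact sign-flip permutation test, p = 0.03125, the smallest 6 lists allow; 0.0446 after Benjamini-Hochberg adjustment over 10 measures). The 6 lists hold largely the same genes, so this test says nothing of how the difference would vary over other genes.

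The CDS share was lower in 6 of 6 lists, with 35.9% for solute carriers and 55.5% for other genes on average, a difference of -19.6 ± 3.66 points (SD, n = 6; exact sign-flip permutation p = 0.03125, adjusted 0.0446). The 5'UTR share was higher in 6 of 6 lists, at 11.7% against 7.93% (same exact p and adjusted p). The start codon window (11.6% against 11.2%) and the stop codon window (5.19% against 5.98%) did not pass the test (exact sign-flip permutation, adjusted p = 0.5 and 0.347, n = 6). Counting each base of a peak instead of its centre turned the stop codon difference to 1.41 points higher in solute carriers (exact sign-flip permutation, adjusted p = 0.0391, n = 6). Without the 4 genes that are not carriers the 3'UTR difference was 16.5 points and the CDS difference -21.4 points, with an adjusted p of 0.0521 for each by the same exact permutation test. With a minimum on the fold enrichment or the p score, or with lists of equal length, the 3'UTR, CDS and 5'UTR differences kept their direction, each with an adjusted p of 0.0521 by the same exact permutation test.

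The transcripts themselves differ in make-up. In the transcripts on which solute carrier peaks were placed, the 3'UTR made up 43.2% of the length for control peaks and 41.7% for H/R peaks, and the CDS 38.9% and 39.7%. For other genes the 3'UTR made up 35.2% and 34.9% and the CDS 47.8% and 48.1%. The share of CDS centres was thus above the CDS share of the transcript for other genes in every list (53.2% to 56.9%) and below or near it for solute carriers (30% to 41.3%). In every list the share of 3'UTR centres was below the 3'UTR share of the transcript. This held for solute carriers (29.1% to 42.1%) and for other genes (15.8% to 23.2%). Solute carrier transcripts had a median of 10 exons against 9, a median longest coding exon of 301 against 334 bases and a last exon of 1716 against 1495 bases. The part of these features in the result was not tested.

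Each called gene was then counted by whether it held a peak in a class. The 3'UTR and CDS differences kept their direction, whereas the 5'UTR, start codon and stop codon results did not stay the same. Such shares also depend on the number of peaks per gene, which was lower in solute carriers (1.48 against 2.03 on average). The part of this in the lower shares was not tested. A 3'UTR peak was held by 50.7% of called solute carrier genes and 37.3% of other called genes on average, higher in 6 of 6 lists, and a CDS peak by 42.0% and 59.7%, lower in 6 of 6 lists (exact sign-flip permutation, p = 0.03125, adjusted 0.0391 over the 5 classes, n = 6). The start codon window was held by 17.2% and 21.5% and the stop codon window by 7.46% and 11.9%, both lower in 6 of 6 lists with the same exact permutation p and adjusted p. The 5'UTR was held by 16.7% and 15.5%, higher in 3 of 6 lists (exact sign-flip permutation, adjusted p = 0.312, n = 6).

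**Figure D3:**
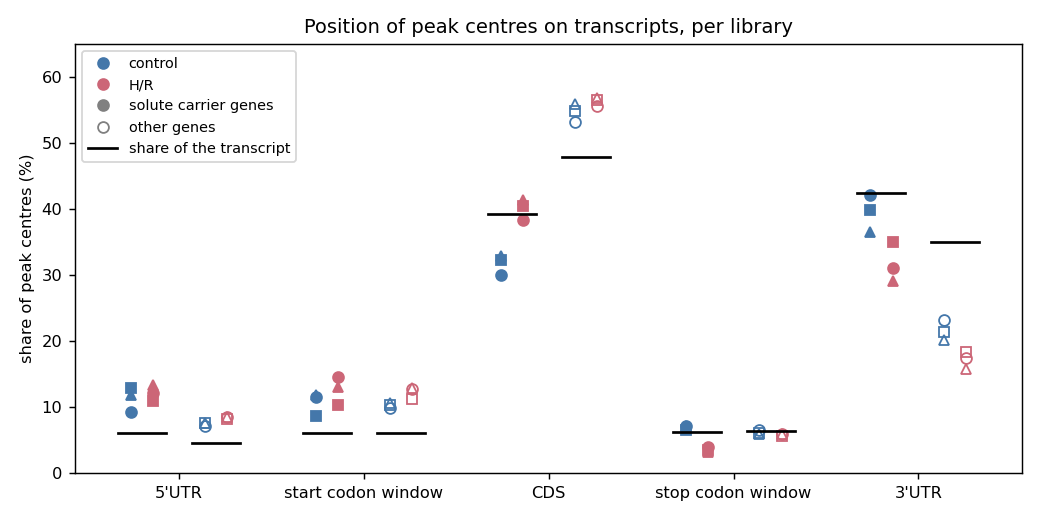
Share of peak centres (%) in each part of the transcript for solute carrier genes (filled) and other genes (open) in each control and H/R list, with black bars at the mean share of the transcript that the part makes up. In every list solute carriers have more centres in the 3'UTR (29.1% to 42.1% against 15.8% to 23.2%) and fewer in the CDS (30% to 41.3% against 53.2% to 56.9%).

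Solute carrier peaks were also longer and sparser per gene, and lower in score in the full lists. Their median length was 867, 920.5 and 830 bases in the controls and 635, 814 and 412 after H/R, against 497, 571 and 522 and then 294, 350 and 245 for other genes. Called solute carrier genes held 1.48 peaks per gene against 2.03 on average, and their median p score was 255.4 against 309.7. The difference had the same sign in 6 of 6 lists for each of these (exact sign-flip permutation, p = 0.03125, adjusted 0.0446, n = 6). The score difference of -54.3 depended on which peaks were kept. It was -10.8 with lists of equal length (exact sign-flip permutation, adjusted p = 0.875, n = 6), and -30.2 and -35.4 with the minimum on fold enrichment and on p score (adjusted p = 0.195 for each by the same exact test). Length and peaks per gene kept their direction in these 3 settings, with an adjusted p of 0.0521 by the same exact permutation test. The median fold enrichment, 18.9 against 19.8 on average, did not pass it (exact sign-flip permutation, adjusted p = 0.117, n = 6). Most peaks (830 of 949) lay inside a single exon of their gene. Within parts of the transcript, the median length averaged 521 against 263 bases in the CDS and 292 against 192 in the start codon window. Both were higher in 6 of 6 lists (exact sign-flip permutation, adjusted p = 0.0625 each, n = 6). It was 1337 against 1220.5 in the 3'UTR and 493 against 307 in the 5'UTR, higher in 5 of 6 (same exact test, adjusted p = 0.0893). At the stop codon it was 734 against 571, higher in 4 of 6 (same exact test, adjusted p = 0.278). No part passed.

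The density of DRACH sites in peaks was lower for solute carriers over all peaks, and its direction differed between the parts of the transcript. It was 19.3 sites per kb against 20.6 on average over all peaks, lower in 6 of 6 lists (exact sign-flip permutation, p = 0.03125, adjusted 0.0446, n = 6), and the adjusted p was 0.0521 with either minimum or with lists of equal length. Among peaks centred in the CDS it was 17.7 against 21.3 per kb, lower in 6 of 6 lists, and among those centred in the 3'UTR 20.9 against 20.9, lower in 4 of 6 and higher in 2 of 6 (exact sign-flip permutation, adjusted p = 0.0625 and 0.969, n = 6). In the start codon window it was 16.9 against 14.7 per kb and in the 5'UTR 14.7 against 13.9, each higher in 6 of 6 lists, and in the stop codon window 19.8 against 20.8, higher in 2 of 6 (exact sign-flip permutation, adjusted p = 0.0625, 0.0625 and 0.234, n = 6). No part passed the test after adjustment over the 10 within-part comparisons. Between 92.7% and 99.0% of solute carrier peaks held at least 1 DRACH site, against 93.5% to 96.1% of all mRNA peaks. Sites were counted on the transcript strand only.

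Every H/R list had a larger share of its solute carrier peaks in the CDS, and a smaller one at the stop codon and in the 3'UTR, than any control list. The CDS share was 31.7 ± 1.54% in the controls and 40.0 ± 1.53% after H/R, the 3'UTR share 39.5 ± 2.85% and 31.7 ± 2.95%, and the stop codon share 6.88 ± 0.38% and 3.49 ± 0.37% (SD, n = 3 each). Each of these 3 p-values was the smallest possible (exact permutation, p = 0.1, adjusted 0.167 over the 5 classes). Over all mRNA peaks the CDS share was 54.4% and 56.2%, the 3'UTR share 21.8% and 17.3% and the stop codon share 6.17% and 5.77%. The centres at a stop codon were 10, 6 and 6 peaks in the controls and 8, 5 and 8 after H/R, while those in the CDS were 42, 30 and 28 and then 79, 59 and 105. The numbers at stop codons overlapped between the groups, and those in the CDS did not. After cutting all lists to 1 length, H/R exceeded control by 3.18 points in the CDS, and the differences were -0.60 in the 3'UTR and -3.83 at the stop codon (exact permutation, adjusted p = 0.5, 1.0 and 0.5, n = 3 each), against 8.30, -7.76 and -3.40 in the full lists. At a fold enrichment minimum of 10, the CDS and 3'UTR differences were 3.90 and -4.15 points.

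By substrate, the families fell into 10 classes set by family number. A class name thus stands for whole families, and the substrate of each member was not checked. Slc35b2, for example, carries PAPS but was counted with the nucleotide sugar transporters. For comparison, 42.8% of all protein-coding genes had a peak, and 39.5% of all genes with a peak were called in all 6 lists. Nucleotide sugar transporters (Slc35, which feed glycosylation in the Golgi and endoplasmic reticulum) had a peak in 19 of 27 annotated genes (70.4%), 9 of them called in all 6 lists, and mitochondrial carriers (Slc25) in 30 of 47 (63.8%), of which 8 were in all 6 lists. Carriers of metal ions had a peak in 19 of 32 genes (59.4%), 9 of them in all 6 lists. At the low end were sugars with 9 of 34 (26.5%) and organic ions and bile acids with 6 of 36 (16.7%). Amino acids, peptides and neurotransmitters, the largest class, had a peak in 36 of 83 genes (43.4%), near the share of all protein-coding genes. Of these 36 genes, 6 were in all 6 lists. Many members of the low classes work in gut, liver or kidney, and whether C17.2 cells express them was not measured here.

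Every class had more genes called on average after H/R. Carriers of amino acids were called in 15, 12 and 12 genes in the controls and 26, 19 and 29 after H/R, and carboxylate carriers in 3, 3 and 3 and then 6, 7 and 8, both without overlap. Sugars (5, 5 and 4 and then 8, 6 and 8) and carriers of sodium, potassium, calcium and protons (10, 11 and 7 and then 12, 12 and 14) did not overlap either. In nucleotide sugar transporters (16, 13 and 10 and then 18, 14 and 17), mitochondrial carriers (17, 10 and 10 and then 23, 15 and 27) and metal ion carriers (16, 10 and 11 and then 17, 15 and 17) the groups overlapped. No class passed the test (exact permutation, 3 against 3, smallest adjusted p = 0.222 over 10 classes), and 3 against 3 could not have passed. Over all genes the called numbers did not overlap either, at 6470, 5208 and 4707 in the controls and 8114, 6639 and 8936 after H/R. With lists of equal length the mean difference turned to -1.33 genes for amino acids, -0.33 for sugars and -1.67 for carriers of sodium, potassium, calcium and protons, and was 1.0 for carboxylates.

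**Figure D4:**
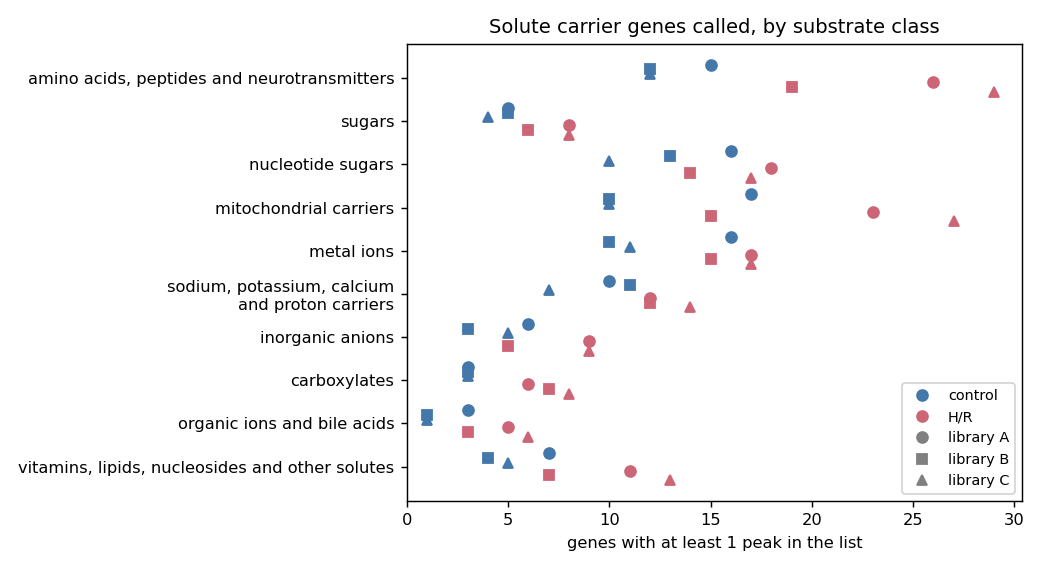
Number of solute carrier genes with at least 1 peak in each control and H/R list, by substrate class (points are lists, slightly shifted up or down so that they do not cover each other). Control and H/R lists do not overlap for carboxylates (3 against 6 to 8), amino acids (12 to 15 against 19 to 29), sugars (4 to 5 against 6 to 8) and carriers of sodium, potassium, calcium and protons (7 to 11 against 12 to 14).

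The classes differed in where their peaks lay and in their leading genes. Over all lists, 43.4% of amino acid carrier centres, 47.3% of sugar carrier centres and 48.0% of those in the class of vitamins, lipids, nucleosides and other solutes were in the 3'UTR, against 4.23% for inorganic anions, of whose centres 69.0% were in the CDS. Metal ion carriers had 25.5% in the 3'UTR and 41.4% in the CDS, and nucleotide sugar transporters 13.3% in the stop codon window. These shares pool peaks that recur in several lists at the same place, so they are descriptions of few genes. The inorganic anion class was led by Slc4a1ap, which is not a carrier, with 4, 4 and 3 peaks in the controls and 5, 4 and 5 after H/R. The class held 72 peaks in all, and each region of Slc4a1ap was classed as CDS. This gene therefore adds to the CDS share of 69.0%, and the share without it was not computed. In each of the 6 lists at least 1 peak of Slc4a1ap lay over an exon of Supt7l on the other strand.

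Other leading genes of a class were Slc16a1, Slc12a7, Slc22a23 and Slc33a1. Slc16a1, the lactate and pyruvate transporter MCT1, had 3, 3 and 2 peaks in the controls and 3 in each H/R list, and its 3'UTR peak had folds of 15.4, 23.8 and 17.9 and then 9.65, 12.99 and 12.5. Slc12a7, a potassium-chloride cotransporter, had 3, 1 and 2 peaks and then 4, 2 and 4. Slc33a1, which carries acetyl-CoA into the endoplasmic reticulum, had 1 peak in every list at 17.0, 22.7 and 13.7 and then 9.64, 12.1 and 13.8, over an exon of Gm26850 on the other strand. In none of these did the peak count separate the groups.

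A list of 25 transporters of oxygen-sensitive and nutrient supply functions was examined as a group. It was drawn up with earlier results of these data known, among them the strong H/R call of Slc20a1. The list therefore gives no independent result on H/R-only genes. Of its genes 22 had a peak, 7 of them in all 6 lists (among them Slc2a1, Slc16a1 and Slc7a5), beside 39.5% of all genes with a peak. In the list 1 gene was H/R-only (Slc20a1, beside 4.96% of all genes). More peaks in every H/R list were found for 2 genes (Slc20a1 and Slc30a1, beside 14.8%). The list was called in 14, 9 and 8 genes in the controls and 19, 13 and 20 after H/R, so the groups overlapped. Over all genes the called numbers were 6470, 5208 and 4707 and then 8114, 6639 and 8936. Slc2a3 (the neuronal glucose transporter GLUT3), Slc11a2 (a divalent metal transporter) and Slc1a3 (a glial glutamate transporter) had no peak in any list. Slc7a11, the cystine/glutamate exchanger that feeds glutathione synthesis, had 1, 0 and 0 peaks and then 1, 2 and 2, and the lactate exporter Slc16a3 had a peak in H/R C alone. Slc1a5 and Slc3a2, which serve glutamine uptake and LAT1 respectively, each had 1 peak in H/R A and C and none in the other 4 lists.

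Among other membrane transport genes, ion channels had the lowest share with a peak. Of the annotated ATP-binding cassette transporters 23 of 50 (46.0%) had a peak, of P-type and V-type ATPases 32 of 67 (47.8%) and of ion channels 50 of 189 (26.5%), against 45.6% of solute carriers. Their H/R-only genes numbered 0, 2 and 3 (0%, 6.06% and 5.77% of those with a peak, beside 4.96% of all genes), and none was control-only, beside 0.0698% of all genes. The ATP-binding cassette genes were called in 11, 9 and 6 genes in the controls and 17, 13 and 20 after H/R, and the ion channels in 28, 23 and 16 and then 41, 29 and 41, with every H/R list above every control list, as over all genes. No test of the difference between the families was made.

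The same libraries also had lists of long noncoding RNA (lncRNA) and circular RNA (circRNA) peaks. lncRNA peaks named for or associated with a solute carrier gene numbered 10, 5 and 4 in the controls and 21, 16 and 27 after H/R, and circRNA peaks of solute carrier host genes 9, 7 and 7 and then 10, 10 and 15 (exact permutation, p = 0.1 each, n = 3 each). These lists were longer after H/R too, with 1047 to 1594 lncRNA peaks in the controls against 1980 to 3243, and 705 to 1076 circRNA peaks against 1329 to 1947. As shares of each list, the lncRNA peaks made up 0.627%, 0.448% and 0.382% in the controls and 0.793%, 0.808% and 0.833% after H/R. The circRNA peaks made up 0.836%, 0.865% and 0.993% and then 0.615%, 0.752% and 0.770%, so the lncRNA share was higher and the circRNA share lower in every H/R list (exact permutation, p = 0.1 each, n = 3 each). The lncRNA lists shared 0 intervals with the mRNA lists, whereas 4076 of 7491 circRNA intervals were also mRNA peaks, so circRNA and mRNA counts are not independent. Within the 12 H/R-only genes no lncRNA or circRNA peak was listed. Among all solute carrier genes, 14 had an mRNA peak over an exon of a gene on the other strand and 6 over an exon of another gene on the same strand, and 1 of these was H/R-only (Slc16a6).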

How the data were processed

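Per the labels, cutadapt (version 1.9.3) and HISAT2 (version 2.0.4) processed the reads, with mm10 as the genome build. By the study's methods the authors called peaks with MACS (version not given in the sources used here). They then screened for peaks on mRNA exons with a program of their own. The study reported peaks for each sample, and its methods do not mention pooling of replicates. Per the file headers, the deposited p score equals the -log10 of the caller's p multiplied by 10, the deposited fold enrichment is a ratio to local background, and the deposited FDR is a percent. Read depth is unknown from the lists, so no depth-based interval is given.

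The members, gene lists and rules were chosen with earlier results of these data known. Genes were matched by symbol. Peak centres were placed on the listed transcript or, failing that, on the longest coding one (RefSeq and GENCODE models, mm10) with Python (version 3.11.15), pandas (version 2.3.3) and pysam (version 0.24.0). Named genes were all H/R-only and control-only genes, the 8 genes in all 6 lists with the highest lowest p score, the 8 largest non-overlapping differences in mean peaks (10 with ties), the nutrient supply list and the leading gene of each class, and 1 member of the supply list is not reported here by name. Lists were compared by exact permutation, and solute carriers with other genes by exact sign-flips over lists, Benjamini-Hochberg adjusted. The counting rules and exact tests were tested on simulated data. Alternatives were a fold enrichment of at least 10, a p score of at least 100, lists of equal length and leaving out each list. No column of unknown sample was present.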

Additional observations from a re-analysis of the deposited data

How the results depend on the processing

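No paired analysis was possible because the letters that name the lists could not be matched with numbered replicates. The comparisons of lists could not reach p under 0.05 with 3 against 3, so their p-values say nothing about stability. With lists of equal length, H/R minus control fell to -0.667 for genes called, to -1.33 for solute carrier peaks, to -0.0789 for peaks per gene called in all 6 lists and to -0.278 points for the 5'UTR share, and turned to 77.3 bases for the median length. By class it turned to -1.33 for amino acids, -0.333 for sugars, -1.67 for nucleotide sugars, -1.67 for sodium, potassium, calcium and proton carriers, and -0.667 for vitamins, lipids, nucleosides and other solutes. H/R-only genes then numbered 3 and control-only genes 3, and regions 4 and 2. Keeping only peaks at a fold enrichment of 10 or more, the difference was 4.0 for genes called, 4.67 for peaks and -55.2 bases for the median length, against 49.3, 99.0 and -252.2 in the full lists, and peaks per gene turned to -0.0167, sugars to -0.667, nucleotide sugars to -1.33 and vitamins, lipids, nucleosides and other solutes to -0.667. H/R-only and control-only genes then numbered 2 and 2, and regions 5 and 3.

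The within-list differences between solute carriers and other genes kept their direction under every alternative for the 7 measures that passed, but their adjusted p was above 0.05 under the 3 list settings and without the 4 genes that are not carriers. The p score then no longer stood at the smallest p (adjusted p = 0.195, 0.195, 0.875 and 0.0893 by exact permutation in the order below), which put the other 6 at 0.0521. At that fold minimum the differences (solute carrier minus other) were 357 bases in length, -30.2 in p score, -0.426 peaks per gene, -1.20 DRACH per kb, 3.60 points in the 5'UTR, -20.2 in the CDS and 17.2 in the 3'UTR. With a p score of at least 100 they were 379.8, -35.4, -0.492, -1.14, 4.41, -22.6 and 17.1 in the same order, and the stop codon difference turned to 0.106. With lists of equal length they were 410.0, -10.8, -0.42, -1.12, 3.17, -24.3 and 20.3. Without the 4 genes that are not carriers, an alternative chosen after seeing the data, they were 363.6, -53.9, -0.581, -1.32, 4.43, -21.4 and 16.5. Under further alternatives chosen after seeing the data, the stop codon difference was 1.41 with each base counted. With each gene counted once it was -2.88 and passed, the median fold difference was -2.03 and passed, and the 5'UTR difference was 3.95 and did not pass.

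Leaving out 1 list at a time, which cannot pass with 5 lists, gave 307 to 366.5 bases in length, -58.7 to -49.2 in p score, -0.589 to -0.519 peaks per gene, -1.38 to -1.24 DRACH per kb, 3.50 to 4.14 points in the 5'UTR, -20.4 to -18.9 in the CDS and 15.7 to 16.8 in the 3'UTR. H/R-only genes ranged from 12 to 25 and H/R-only regions from 18 to 40, with 24 genes and 30 regions without control A and 25 and 40 without H/R B. Control-only genes ranged from 0 to 1 and regions from 0 to 2. The H/R minus control difference in the 5'UTR share ranged from -0.174 to 1.64 points and was negative without control A alone. Causes of these changes were not tested. The unknown depth of the lists and their unequal length limit every count given here.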
